A study of Mus musculus with 17 samples.

Results

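The genes of the tumor necrosis factor (TNF), interleukin-6 (IL-6) and nuclear factor kappa B (NF-kB) pathway were followed through bulk RNA sequencing of the mouse cochlea. The set holds 10 genes chosen by name out of 35285 in the deposited table: the cytokines Tnf and Il6, the TNF receptor gene Tnfrsf1b, the ubiquitin ligase gene Birc3, the inhibitor genes Tnfaip3 and Nfkbia, and the subunit genes Nfkb1, Nfkb2, Rela and Relb. All 10 were found, each as 1 row, in all 17 libraries. None of them passed the call used here (adjusted p under 0.05 and a fold change of at least 2, limma) in any comparison. At an unadjusted p under 0.05, Tnfaip3, Nfkbia and Nfkb2 were lower in brimonidine than in NE, against 2.46% of all genes in that direction, and this count of 3 fell to 1 without any of 5 single libraries and to 0 with all 17 libraries in 1 model. Nfkb1 and Rela were higher in NE than in control at that p, and without control 2 neither passed. Of the 15950 genes tested, 32.9% had such a p, 1695 higher and 3557 lower in NE.

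The libraries came from wild-type male C57BL/6J mice aged 8 weeks, with 1 library per mouse. The 3 control mice received saline injections and no noise. The 7 NE (noise exposure) mice were exposed for 2 h to noise of 8 to 16 kHz at 100 dB SPL. The 7 brimonidine mice heard the same noise and were injected intraperitoneally with 1 mg/kg brimonidine, an agonist of alpha-2 adrenergic receptors, in 3 injections on the days before, of and after the noise. All cochleae were taken 2 days after exposure. The sources used here do not say whether NE mice were injected, and no library came from brimonidine without noise. The labels call the noise broadband and the methods call it octave-band, and the labels name the tissue as cochlear cells and the cell type as interstitial cells.

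NF-kB is a family of transcription factors kept in the cytoplasm by inhibitor proteins. When TNF binds its receptors, adaptor proteins and ubiquitin ligases activate a kinase complex that marks the inhibitor for destruction, and the freed dimers enter the nucleus. Several of the genes they switch on, among them Nfkbia and Tnfaip3, encode proteins that end the signal, so the transcripts of these inhibitors are often read as a record of recent pathway activity. IL-6 is another product of the pathway and signals onward through STAT3. In the cochlea, TNF and IL-6 are known as inflammatory cytokines made after acoustic injury by resident and recruited cells.

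Values were FPKM (fragments scaled to transcript length and to library depth). Fragment totals, recovered from the table with gene lengths, were 14457733 to 16080796 in control, 15769236 to 18288854 in NE and 16624437 to 18224926 in brimonidine. Control 2 stood apart: its median correlation with the other libraries was 0.831, against 0.955 in control 1, 0.947 in control 3 and 0.970 to 0.981 in the 14 exposed libraries. Summed over 12 neutrophil genes, all detected at a mean of at least 1 FPKM, control 2 had 9909 FPKM, whereas control 1 had 44034, control 3 had 46479 and the exposed libraries had 39991 to 65385, with the highest sum in NE 6. Of 11 monocyte and macrophage genes, Lyz2, Ly6c2 and Ccr2 summed to 1786 FPKM in control 2, 3691 in control 1, 3877 in control 3 and 3095 to 4960 in the exposed libraries. The other 8, among them Csf1r, Adgre1 and C1qa, summed to 316 FPKM in control 2, which was above control 1 (272) and control 3 (301), and to 308 to 381 in the exposed libraries. Control 2 was above every other library for the summed erythroid genes (10673 FPKM, at most 6005 in the exposed libraries), Schwann cell genes (371, at most 192), cochlear epithelium genes (1328, at most 895) and stria vascularis genes (385, at most 133). The same held for B cell genes (117, at most 88.5), endothelial genes (65.5, at most 57.1) and osteoblast genes (1102, at most 986). It was below every other library for plasma cell genes (202 FPKM), T and NK cell genes (36.2) and osteoclast genes (488). Genes of central neurons and glia, 8 of 9 at a mean of at least 1 FPKM, summed to 155, 367 and 201 FPKM in the 3 controls and to 28.2 to 71.6 in the exposed libraries. Of 8 hair cell genes, 5 were at a mean of at least 1 FPKM. Gfi1, which myeloid cells also express, was at 17.1, 7.79 and 16.2 FPKM in controls 1 to 3 and at 17.98 to 27.9 in the exposed libraries, and the other 7 summed to 9.67, 17.5 and 9.07 FPKM in the controls and to 9.63 to 13.3 in the exposed libraries. The part of these cell mixtures in the results below was not tested, and in bulk tissue fewer cells of a type and less RNA per cell cannot be told apart.

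The NF-kB dimers bind a short DNA motif, the kappa B consensus, and its presence near the start of a gene was read from RefSeq promoters (GRCm38.p6, 250 bases before to 50 bases after each start). Promoters were found for 8 of the 10 genes, and 4 of the 8 (50%) held the motif on either strand: Nfkbia, Nfkb2, Il6 and Tnfaip3. Of all 32851 promoters in the table, 2779 held it (8.46%), and of 11101 genes that passed the filter on low values, 1390 did (12.5%). Printing was set for Nfkbia, Tnfaip3, Birc3 and Nfkb2, as classical targets, and for Tnf, where they held a match. Birc3 and Tnf held none, and Il6 was added because it held a match. Tnfaip3, Nfkb2 and Nfkbia were also the 3 genes of the set with the lowest unadjusted p in brimonidine against NE (limma). For Nfkbia (chr12:55492648-55492797, minus strand), Nfkb2 (chr19:46304587-46304736, plus strand) and Il6 (chr5:30012964-30013113, plus strand), the 150 bases before the start are printed. For Tnfaip3 (chr10:19015403-19015432, minus strand), 30 bases around a match are printed, because the RefSeq start lies 247 bases inside the gene as the deposited table places it. Capitals mark the motif, and in Nfkb2 the first stretch of capitals is a pair of overlapping matches.
Nfkbia: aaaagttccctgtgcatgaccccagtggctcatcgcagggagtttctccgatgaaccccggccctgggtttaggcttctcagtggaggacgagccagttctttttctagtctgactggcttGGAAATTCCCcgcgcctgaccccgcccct
Nfkb2: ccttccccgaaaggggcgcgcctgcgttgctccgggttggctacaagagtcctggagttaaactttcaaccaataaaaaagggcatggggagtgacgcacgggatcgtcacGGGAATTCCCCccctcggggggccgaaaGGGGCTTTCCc
Il6: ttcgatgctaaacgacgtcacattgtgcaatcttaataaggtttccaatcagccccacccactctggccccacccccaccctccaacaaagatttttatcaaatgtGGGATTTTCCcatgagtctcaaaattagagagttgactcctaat
Tnfaip3: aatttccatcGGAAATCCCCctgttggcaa
Counted from the start, the match began at base -29 in Nfkbia, at -39, -38 and -11 in Nfkb2, at -44 in Il6 and at -12 in Tnfaip3, whose promoter held another match at -125 that is not printed. RefSeq gives Nfkb2 a further pair of starts, whose promoters held matches at -236 and 11 and at -225, and Tnfaip3 a further start whose promoter held none. A match describes the letters only.

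The levels of the 10 genes spanned a wide range. In NE, Nfkbia had the highest mean at 108 FPKM, followed by Tnfrsf1b at 49.4 and Rela at 35.2, and the ranges of these 3 genes did not overlap with their neighbors in the order. Birc3 (18.2 FPKM), Nfkb2 (16.9), Tnf (15.3) and Nfkb1 (14.5) came next, and the ranges of neighbors among these 4 overlapped. Tnfaip3 at 9.39 FPKM and Relb at 5.70 overlapped with each other, and Il6 was lowest at 0.928. The order in brimonidine was the same except that Nfkb1 came before Tnf. In control, the ranges of neighboring genes overlapped from Nfkbia down to Nfkb1. The fragments behind these values ranged from 5 for Il6 in control 2 to 4531 for Nfkbia in control 3.

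**Figure D1:**
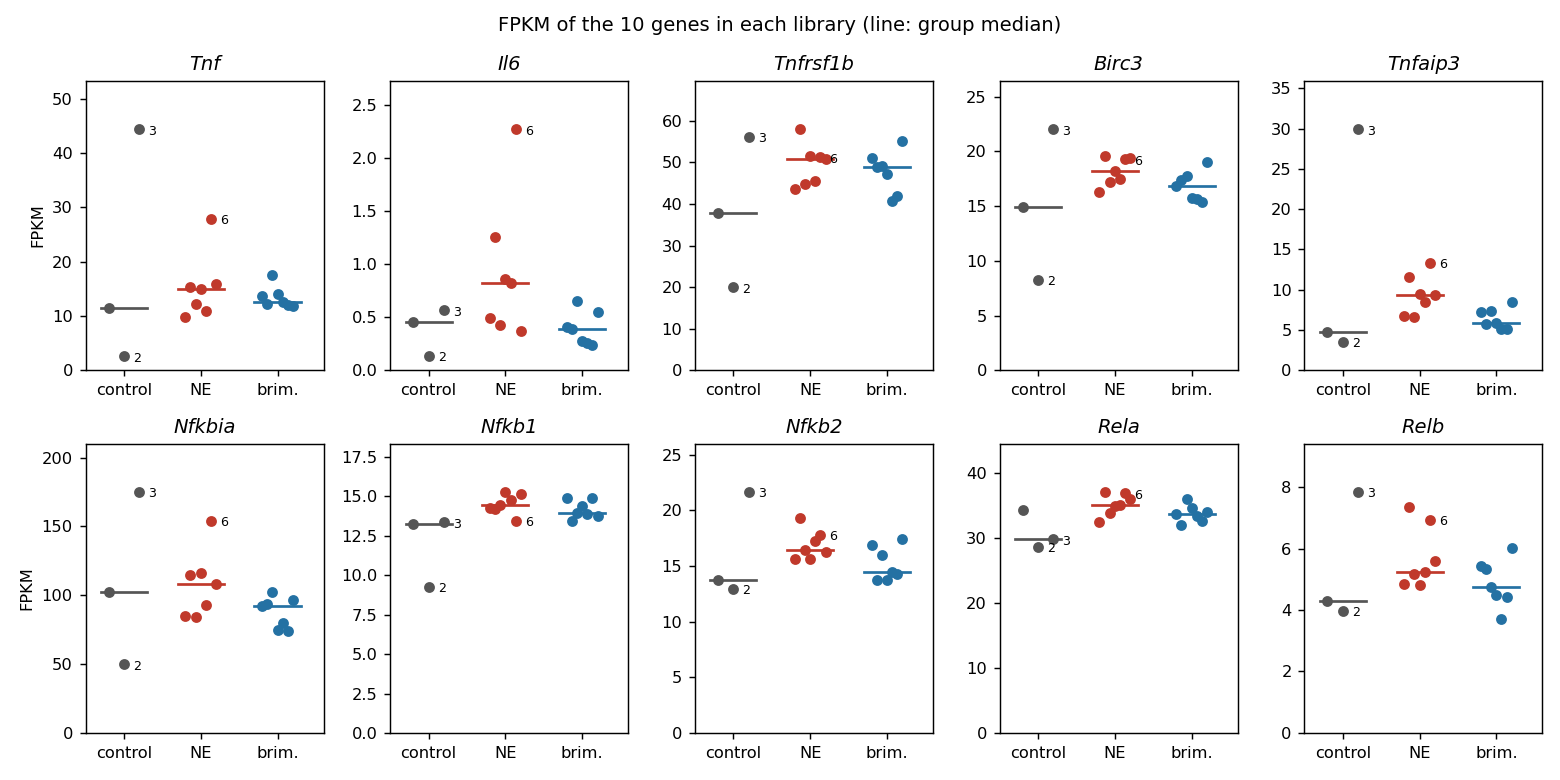
FPKM of the 10 genes in each library, with 1 point per library, a linear axis from 0 for each gene and a line at the median of control, NE and brimonidine. Control 2, control 3 and NE 6 are numbered: Tnf was 2.57 in control 2, 44.4 in control 3 and 27.9 in NE 6, and the controls spread more widely than the exposed groups for Tnf, Tnfaip3 and Nfkbia.

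Tnf (ENSMUSG00000024401, chr17:35199381-35202007, minus strand, mm10) encodes the ligand that starts the pathway. Its level was 11.4 FPKM in control 1, 2.57 in control 2 and 44.4 in control 3, so that the highest control was 17.2 times the lowest. The 7 NE libraries ranged from 9.87 to 27.9 with a median of 14.9, and the 7 brimonidine libraries from 11.9 to 17.5 with a median of 12.5. The 3 groups overlapped, the highest NE value was in NE 6, and all 14 exposed libraries lay between control 2 and control 3. The mean of log2(FPKM + 1) was 0.30 ± 0.60 (SE) higher in NE than in control (adjusted p = 0.756, limma), and 0.12 ± 0.17 lower in brimonidine than in NE (adjusted p = 0.967, limma). Without NE 6, the difference between brimonidine and NE was 0.03, in the opposite direction.

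Il6 (ENSMUSG00000025746, chr5:30013114-30019981, plus strand) encodes IL-6. It was at 0.456, 0.136 and 0.563 FPKM in controls 1 to 3. In NE it ranged from 0.374 to 2.27 with a median of 0.822, and in brimonidine from 0.240 to 0.655 with a median of 0.390. The highest values were in NE 6 (2.27) and NE 2 (1.26), 4 NE libraries were above every brimonidine library, and the groups overlapped. Only 2 of 17 libraries reached 1 FPKM, so Il6 was the single gene of the set that did not pass the filter of at least 1 FPKM in at least 3 libraries. The exact permutation test gave p = 0.0262 for brimonidine against NE (means 0.396 and 0.928 FPKM, n = 7 and 7, two-sided), where the smallest p possible is 0.00058. With no filter, the difference of brimonidine from NE was -0.41 ± 0.17 on the log2(FPKM + 1) scale (adjusted p = 0.898, limma), a scale that understates the change of a gene this low. Without NE 6 the NE mean was 0.704 FPKM and the difference was -0.27 (exact permutation p = 0.0524), and without NE 2, NE 4 or NE 5 the exact permutation p was 0.0524, 0.0513 or 0.0501. For NE against control, the exact permutation p was 0.15.

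Tnfrsf1b (ENSMUSG00000028599, chr4:145213463-145246870, minus strand) encodes TNF receptor 2, found mainly on immune and endothelial cells. Its level was 37.8, 19.98 and 56.2 FPKM in controls 1 to 3. It ranged from 43.7 to 58.0 with a median of 50.8 in NE, and from 40.8 to 55.1 with a median of 49.0 in brimonidine. Controls 1 and 2 were below all 14 exposed libraries, whereas control 3 was within their range. The difference of NE from control was 0.48 ± 0.24 (adjusted p = 0.185, limma), and that of brimonidine from NE was -0.05 ± 0.08 (95% interval -0.21 to 0.11, adjusted p = 0.968, limma).

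Birc3 (ENSMUSG00000032000, chr9:7848699-7873186, minus strand) encodes cIAP2, a ubiquitin ligase of the TNF receptor complex that protects cells from death. It was at 14.9, 8.27 and 22.0 FPKM in controls 1 to 3, at 16.3 to 19.6 in NE (median 18.2) and at 15.4 to 19.0 in brimonidine (median 16.9). Controls 1 and 2 were below, and control 3 above, every exposed library. The difference of brimonidine from NE was -0.11 ± 0.06 (adjusted p = 0.87, limma; exact permutation p = 0.0769), with 3 brimonidine libraries below all NE libraries.

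Tnfaip3 (ENSMUSG00000019850, chr10:19000910-19015657, minus strand) encodes A20, an enzyme that edits ubiquitin chains on the receptor complex and shuts the signal off. It was at 4.72 FPKM in control 1, 3.51 in control 2 and 29.9 in control 3. In NE it ranged from 6.65 to 13.3 with a median of 9.39, and in brimonidine from 5.14 to 8.42 with a median of 5.80. Control 3 was above, and controls 1 and 2 were below, all 14 exposed libraries. Among exposed libraries, 5 of 7 NE values lay above every brimonidine value, 4 of 7 brimonidine values lay below every NE value, and all 7 brimonidine values were below the NE mean. The difference of brimonidine from NE was the largest of the 9 tested genes, -0.47 ± 0.14 (95% interval -0.78 to -0.17), with an exact permutation p of 0.0111 and an adjusted p of 0.603 by limma, where it ranked 115th by p of 15707 genes. Without NE 6 the difference was -0.39 with an unadjusted p of 0.0094 (limma).

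Nfkbia (ENSMUSG00000021025, chr12:55489410-55492647, minus strand) encodes I kappa B alpha, the inhibitor that holds NF-kB in the cytoplasm. Its level was 102, 49.9 and 175 FPKM in controls 1 to 3. It ranged from 84.2 to 154 in NE with a median of 108, and from 74.3 to 103 in brimonidine with a median of 92.0. The highest NE value was again in NE 6, 4 NE values lay above all brimonidine values and 3 brimonidine values lay below all NE values. The difference of brimonidine from NE was -0.28 ± 0.12 (exact permutation p = 0.0577; adjusted p = 0.857, limma). Without NE 6 it was -0.19, with an unadjusted p of 0.0836 (limma).

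Nfkb1 (ENSMUSG00000028163, chr3:135584655-135691547, minus strand) encodes the p105 precursor of the p50 subunit. It was at 13.3, 9.28 and 13.4 FPKM in controls 1 to 3, at 13.4 to 15.3 in NE (median 14.5) and at 13.5 to 14.9 in brimonidine (median 13.9). This was the only gene of the set for which the controls did not overlap with either exposed group, although control 3 (13.354) and the lowest NE library, NE 6 (13.439), lay close together. The difference of NE from control was 0.27 ± 0.10 (exact permutation p = 0.0167, where the smallest possible is 0.0083; adjusted p = 0.0972, limma). That of brimonidine from control was 0.24 ± 0.10 (exact permutation p = 0.0167; adjusted p = 0.114, limma). Over all 15950 genes tested in NE against control, the groups did not overlap for 18.3%, of which 516 genes were higher in NE, as Nfkb1 was, and 2398 lower. In brimonidine against control, it was 19.4% of 15947 genes, 808 higher and 2283 lower in brimonidine. Without control 2, the library that stood apart, the difference of NE from control was 0.12 with an unadjusted p of 0.0982, and that of brimonidine from control was 0.08 with an unadjusted p of 0.181 (limma).

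Nfkb2 (ENSMUSG00000025225, chr19:46304737-46312090, plus strand) encodes the p100 precursor of p52, the subunit of the non-canonical branch. It was at 13.8, 13.0 and 21.6 FPKM in controls 1 to 3, at 15.6 to 19.3 in NE (median 16.4) and at 13.7 to 17.4 in brimonidine (median 14.5). Control 3 was above every exposed library, and 4 brimonidine libraries were below all NE libraries. The difference of brimonidine from NE was -0.14 ± 0.06 (exact permutation p = 0.0455; adjusted p = 0.857, limma), and it was -0.11 without NE 2, the highest NE library, with an unadjusted p of 0.0864 (limma).

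Rela (ENSMUSG00000024927, chr19:5637483-5648130, plus strand) encodes p65, the activating subunit of the canonical dimer, and had the narrowest range over all 17 libraries. It was at 34.3, 28.6 and 29.8 FPKM in controls 1 to 3, at 32.4 to 37.1 in NE (median 35.1) and at 32.0 to 36.0 in brimonidine (median 33.7). Its highest library was 1.29 times its lowest, and controls 2 and 3 were below every exposed library. The difference of NE from control was 0.18 ± 0.08 (exact permutation p = 0.05; adjusted p = 0.13, limma). That of brimonidine from NE was -0.06 ± 0.04 (adjusted p = 0.899, limma).

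Relb (ENSMUSG00000002983, chr7:19606217-19629438, minus strand) encodes the partner of p52. It was at 4.29, 3.97 and 7.84 FPKM in controls 1 to 3, at 4.80 to 7.35 in NE (median 5.23) and at 3.72 to 6.02 in brimonidine (median 4.76). The lowest of all libraries was brimonidine 5, and 4 brimonidine libraries were below all NE libraries. The difference of brimonidine from NE was -0.19 ± 0.10 (exact permutation p = 0.115; adjusted p = 0.872, limma).

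Taking noise exposure first, 9 of the 10 genes were tested in NE against control and 0 were called, against 5.76% of the 15950 genes tested (limma). At an unadjusted p under 0.05, 2 of 9 passed by limma, and 2 by voom on the recovered fragments, against 32.9% of all genes by limma. The 2 by limma were higher in NE, and of all 15950 genes 1695 were higher and 3557 lower at that p. The mean log2 difference was above 0 for all 9 genes, with a median of 0.18, while the median of all genes was -0.04. The means of untransformed FPKM ran the other way for Tnf, Tnfaip3 and Nfkbia, with control 3 high: NE to control mean ratios were 0.785, 0.738 and 0.990.

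For several genes the direction depended on which control libraries entered. Control 3 was above all 14 exposed libraries for 6 genes of the set, and control 2 was below all 14 for 9 genes. Without control 3, the difference of NE from control was 1.22 for Tnf (adjusted p = 0.0932, limma) and 0.9992 for Tnfaip3 (adjusted p = 0.0243), and it was 0.81 for Tnfrsf1b (adjusted p = 0.0298) and 0.66 for Birc3 (adjusted p = 0.0347), so that 3 of 9 genes had an adjusted p under 0.05, against 11.7% of all genes in that setting. None of these 3 reached a fold change of 2. Without control 2, the differences were -0.61 for Tnf, -0.39 for Tnfaip3, -0.34 for Nfkbia, -0.03 for Nfkb2 and -0.04 for Relb, and 0 of 9 genes had an unadjusted p under 0.05 by limma, against 20.3% of all genes. Without control 1, Tnfaip3 was at -0.22, and Nfkb1 (0.35, adjusted p = 0.0499) and Rela (0.26, adjusted p = 0.0423) had an adjusted p under 0.05 by limma, against 24.3% of all genes. Beside these values, control 2 had the lowest sums of neutrophil genes and of Lyz2, Ly6c2 and Ccr2 but not of the other 8 monocyte and macrophage genes, whereas the neutrophil sum of control 3 was within the range of the exposed libraries.

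**Figure D2:**
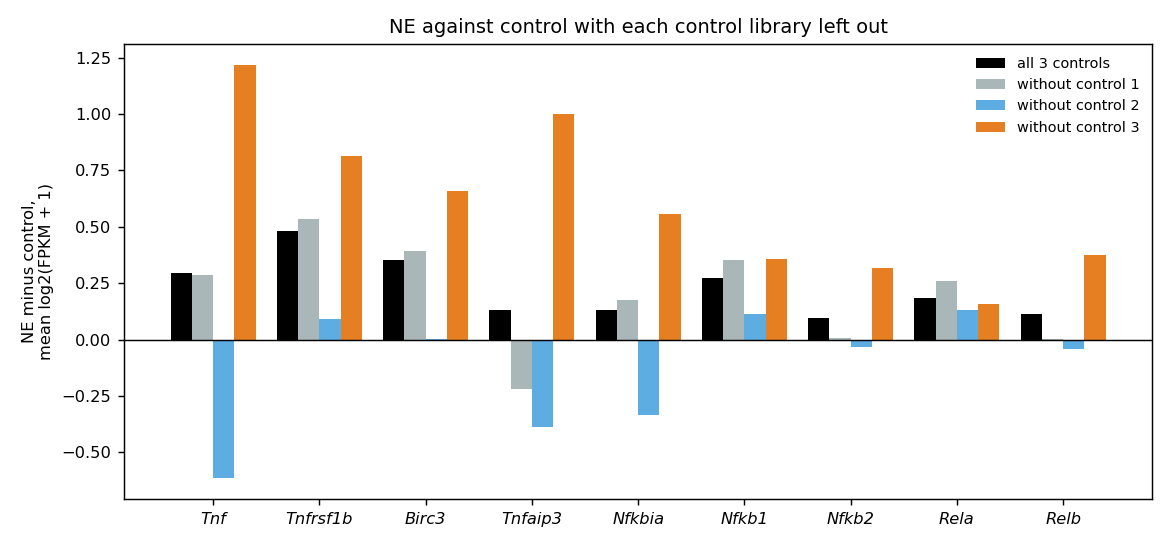
Difference between the NE and control means of log2(FPKM + 1) for the 9 tested genes, with all 3 controls and with each control library left out; bars start at 0. Tnf ran from -0.61 without control 2 to 1.22 without control 3, whereas Nfkb1 and Rela were above 0 in all 4 settings.

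For brimonidine against control, 9 genes were tested and 0 were called, against 5.73% of 15947 genes (limma). At an unadjusted p under 0.05, only Nfkb1 passed, by limma and likewise 1 gene by voom. Of all genes 35.6% had such a p by limma, 2167 higher and 3505 lower in brimonidine. The differences were above 0 for 5 genes and below 0 for 4 (Tnfaip3, Nfkbia, Nfkb2 and Relb), with a median of 0.13 beside -0.03 for all genes. For Tnf, counted above 0, the mean of untransformed FPKM was lower in brimonidine than in control (13.4 and 19.5, a ratio of 0.688), with control 3 high. NE and brimonidine were compared with the same 3 controls. Without control 3, Tnfrsf1b was at 0.77 (adjusted p = 0.0337, limma), and Tnfaip3, Nfkbia, Nfkb2 and Relb were above 0. Without control 2, Tnf was at -0.73 and Birc3 at -0.10, and Nfkb1 no longer passed an unadjusted p under 0.05. Nfkbia alone then did (-0.62, adjusted p = 0.072, limma), against 25.2% of all genes in either direction (1583 higher and 2337 lower).

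**Figure D3:**
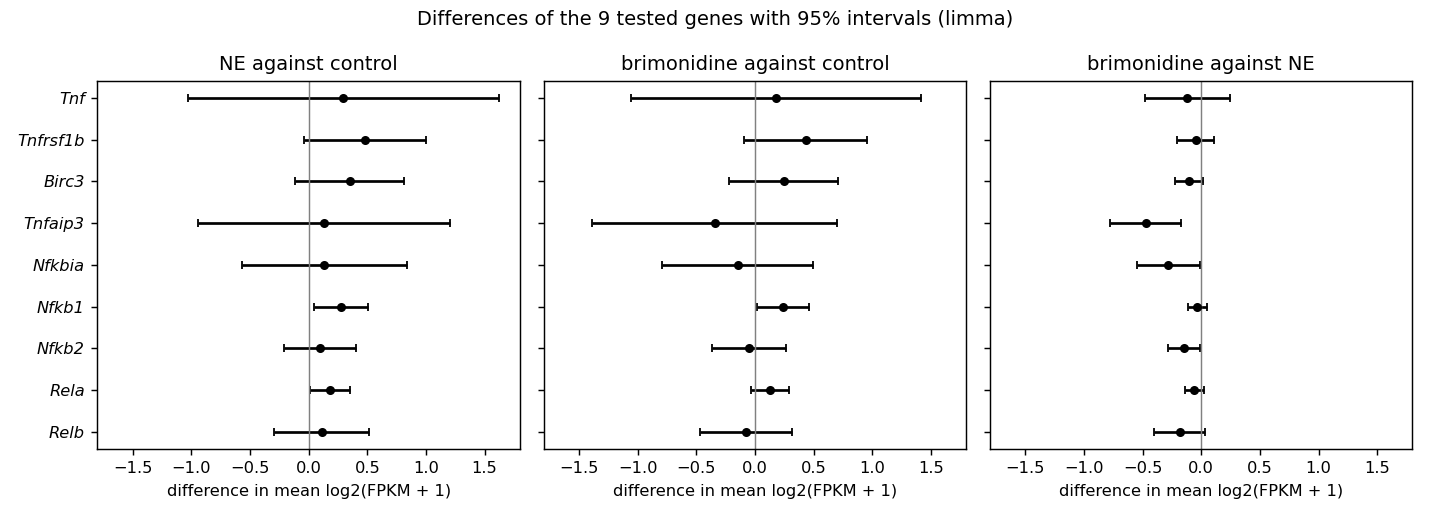
Differences in mean log2(FPKM + 1) with 95% intervals from limma for the 9 tested genes in the 3 comparisons, on 1 common axis; the vertical line is 0. In brimonidine against NE all 9 points are below 0, and the intervals of Tnfaip3, Nfkbia and Nfkb2 do not include it.

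In brimonidine against NE, which compares noise-exposed mice with and without the drug, 9 genes were tested and 0 were called. Over all 15707 genes tested, 0% were called (limma). At an unadjusted p under 0.05, 3 of 9 passed by limma and 3 by voom, against 5.77% of all genes, and all 3 were lower in brimonidine, against 2.46% of all genes in that direction. The mean difference was below 0 for all 9, from -0.03 for Nfkb1 to -0.47 for Tnfaip3, with a median of -0.12 beside 0.01 for all genes. Adjusted p values ran from 0.603 to 0.968. The count of 3 was 1 without NE 2, NE 6, brimonidine 4, brimonidine 5 or brimonidine 6, where 3.98% to 7.15% of all genes had such a p, and 5 without brimonidine 7 (6.59% of all genes). It was also 1 when all libraries were scaled to equal totals (4.11%), and 0 with all 17 libraries in 1 model (2.9%). No gene of the set had groups that did not overlap, against 0.14% of all genes.

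High libraries recurred across the set. NE 6 was the highest NE library for Tnf, Il6, Tnfaip3 and Nfkbia, and NE 2 was the highest for Nfkb2, Rela, Relb, Birc3 and Tnfrsf1b. Brimonidine 7 was the highest brimonidine library for 5 genes, and brimonidine 3 for 4. NE 6 was also the library with the highest neutrophil sum, 65385 FPKM, of which S100a9 alone made up 30213. Of the neutrophil genes, S100a8, S100a9, Mpo, Ngp and Ltf were highest in NE 6. Ly6g, Elane, Camp, Cxcr2, Csf3r, Retnlg and Mmp8 were highest in brimonidine libraries. NE 2 had the highest sum of 6 plasma cell genes, among them Jchain and Mzb1, at 1388 FPKM. That sum was 770, 202 and 615 FPKM in controls 1 to 3, 590 to 1388 in NE with a median of 944, and 624 to 835 in brimonidine with a median of 712.

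The other genes of the pathway were taken from 6 lists of 138 genes in all, of which 122 to 124 were tested in each comparison. In NE against control, 2 of 123 were called by limma, against 5.76% of all genes: Cxcl10, a chemokine that attracts T cells, rose (9.40 ± 3.29 FPKM in NE, n = 7, and 3.88 ± 1.95 in control, n = 3, SD; difference 1.11, adjusted p = 0.0288), and Cntfr, the receptor for ciliary neurotrophic factor, fell (4.76 ± 0.95 and 13.4 ± 6.57; difference -1.25, adjusted p = 0.00428). Cxcl10 was at 5.99, 2.14 and 3.51 FPKM in controls 1 to 3 and at 6.07 to 14.3 in NE, with no overlap. Cntfr was at 9.35, 20.98 and 9.86 in the controls and at 3.59 to 6.28 in NE, and control 2, which had the highest sum of central neuron and glia genes, was also the highest here. Without control 2 neither was called, with differences of 0.83 for Cxcl10 (adjusted p = 0.15, limma) and -0.90 for Cntfr (adjusted p = 0.00632). Cxcl10 also lost its call without control 3, NE 2 or NE 7, with adjusted p values of 0.0707, 0.0505 and 0.0544 by limma. With no minimum fold, Sele, the endothelial adhesion molecule E-selectin (0.70, adjusted p = 0.0139), Casp8, the initiator caspase of death receptors (0.51, adjusted p = 0.0382), and the receptor gene Tnfrsf8 (0.55, adjusted p = 0.0471) were also higher in NE by limma, and Tnfrsf25 was lower (-0.52, adjusted p = 0.0437). Control 2 was the lowest control for Casp8 (19.8, 11.4 and 20.2 FPKM in controls 1 to 3) and for Tnfrsf8 (0.640, 0.171 and 0.557). In the same order, Tnfrsf25 was at 2.01, 2.11 and 1.99 FPKM. In all 6 of 123 had an adjusted p under 0.05, against 14.1% of all genes. By list, the median difference was 0.35 for the NF-kB target genes, 0.30 for the TNF superfamily ligands, 0.21 for the receptors, 0.16 for the subunits and inhibitors, 0.14 for the IL-6 family and 0.11 for the adaptors and kinases, against -0.04 for all genes. In all, 101 of 123 genes had a difference above 0. The 29 tested target genes that are not among the 10 had a median of 0.40, which was 0.02 without control 2, with 16 above and 13 below 0.

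In brimonidine against control, 1 of 122 was called by limma, against 5.73% of all genes: Cntfr (4.86 ± 0.88 FPKM, n = 7; difference -1.22, adjusted p = 0.00403), which fell. Without control 2 its difference was -0.87 (adjusted p = 0.00299), short of the fold required. With no minimum fold, Casp8 (0.53, adjusted p = 0.0349), Vcam1, a vascular adhesion molecule (0.32, adjusted p = 0.0264), and Ikbkb, the kinase that phosphorylates the inhibitor (0.24, adjusted p = 0.0296), were higher, and Nkiras1 was lower (-0.55, adjusted p = 0.0445, limma). Control 2 stood apart for Casp8 (19.8, 11.4 and 20.2 FPKM in controls 1 to 3) and for Nkiras1 (2.89, 5.41 and 2.55). In the same order, Vcam1 was at 10.1, 12.0 and 10.1 FPKM and Ikbkb at 6.66, 5.77 and 5.77. In all 5 of 122 had an adjusted p under 0.05, against 15.8% of all genes.

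In brimonidine against NE, 0 of 124 pathway genes were called and 0 had an adjusted p under 0.05 by limma, against 0.00637% of all genes (1 gene). At an unadjusted p under 0.05, 3 were higher and 20 lower, against 5.77% of all genes in either direction and 2.46% lower, and 15 of these 20 were NF-kB target genes. Of the 36 tested target genes, 32 had a difference below 0, with a median of -0.20 against 0.01 for all genes. The plasma cell sum was likewise above every brimonidine library in 5 of 7 NE libraries. In NE 6 (604 FPKM) and NE 7 (590) it was below every brimonidine library, the lowest of which was at 624. The part of this sum in these values was not tested. The list includes 8 of the 10 genes above, of which 7 were tested. Among the other 29 tested, 12 were lower at an unadjusted p under 0.05, 1 was higher, and 25 had a difference below 0, with a median of -0.23. These 12 became 10 without NE 6 (median -0.20), 8 without NE 2 (median -0.19) and 4 with all 17 libraries in 1 model (median -0.23), against 3.43%, 1.75% and 1.26% of all genes in that direction. Some genes stand in more than 1 list: the 5 of 17 subunits and inhibitors that were lower at that p (Nfkbiz, Tnfaip3, Nfkbie, Nfkb2 and Nfkbia) are all among the 15 target genes. In the remaining lists, 2 of 23 receptors were lower and 1 higher, 1 of 10 ligands was lower, 1 of 27 adaptors and kinases was lower and 1 higher, and 1 of 22 genes of the IL-6 family was lower.

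Ptgs2, the inducible cyclooxygenase, was at 3.07 to 4.52 FPKM in NE and at 1.58 to 2.84 in brimonidine, with no overlap (difference -0.54 ± 0.09, unadjusted p = 4.47e-05, adjusted p = 0.172, limma). Il1b, the cytokine interleukin-1 beta, was at 56.4 to 197 FPKM in NE and at 24.3 to 58.1 in brimonidine (difference -1.11 ± 0.26, adjusted p = 0.334, limma), with a slight overlap, and the difference was -0.91 without NE 6. Its highest NE value was in NE 6, and control 3 (183 FPKM) was well above control 1 (33.8) and control 2 (19.4), the same order as for Tnf. Nfkbiz, an inducible member of the inhibitor family, was at 15.0 to 24.8 FPKM in NE and at 12.2 to 15.2 in brimonidine (difference -0.35 ± 0.08, adjusted p = 0.4, limma). Downstream of IL-6, Socs3, the feedback inhibitor of STAT3 signaling, was at 32.6 to 78.4 FPKM in NE and at 24.8 to 44.1 in brimonidine (difference -0.52 ± 0.17, adjusted p = 0.661, limma). The next of the IL-6 family, Osmr and Osm, were at -0.19 and -0.21. Among the adaptors and kinases, the smallest p belonged to Map3k8, the kinase TPL2, with a difference of -0.18 ± 0.08, and to Map3k7, the kinase TAK1, with 0.11 ± 0.05 (adjusted p = 0.857 for both, limma), followed by Birc3. Among the ligands it belonged to Tnfsf11, which encodes RANKL (-0.33 ± 0.12, adjusted p = 0.792, limma), ahead of Tnfsf10 at -0.25 and Ltb at 0.15. Among the receptors the differences were -0.25 for Tnfrsf8, 0.24 for Tnfrsf25 and -0.16 for Tnfrsf9, with adjusted p values of 0.789 to 0.865 by limma.

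**Figure D4:**
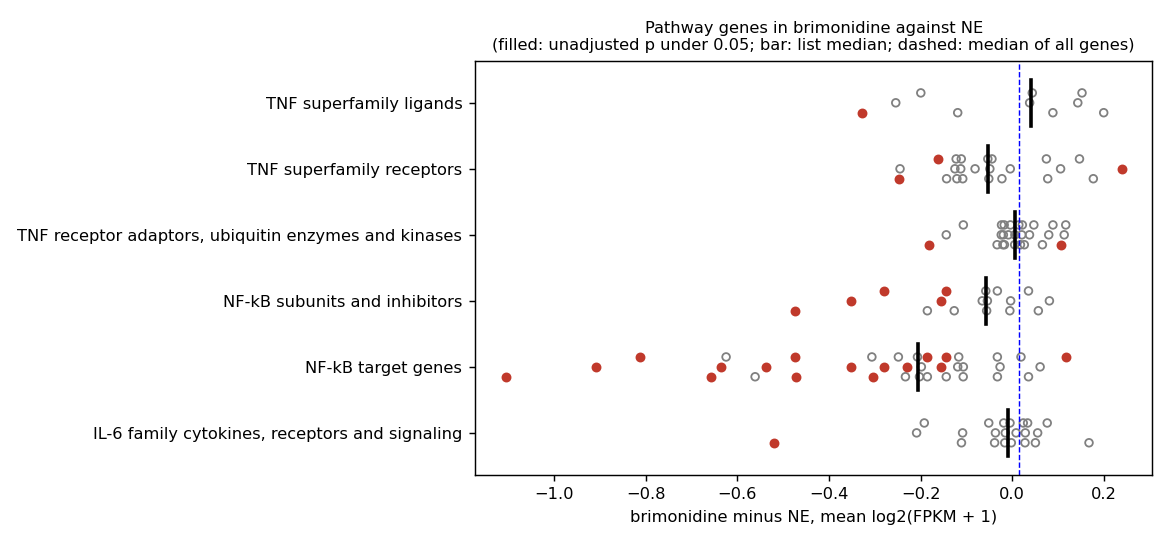
Difference between the brimonidine and NE means of log2(FPKM + 1) for each tested gene of the 6 pathway lists, with 1 point per gene, filled where the unadjusted limma p was under 0.05. The bar is the list median and the dashed line the median of all genes (0.01); the NF-kB target genes lie furthest to the left, with a median of -0.20, and some genes are in more than 1 list.

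Among the 14 exposed libraries, after the group means were subtracted, the genes whose levels followed those of the set most closely were sought among 14998 genes whose mean was 1 FPKM or more. These correlations were picked as the highest and are descriptions over libraries whose neutrophil sums and depths differ as given above. For Nfkbia the closest were Cxcl2, a neutrophil chemokine (Pearson r = 0.946, Spearman rho = 0.934), Junb (r = 0.905) and the chemokine gene Ccl3 (r = 0.904). For Tnfaip3 they were Ctsa (r = 0.897), Tnip1, whose product binds A20 (r = 0.886), and Traf1 (r = 0.882). Slc11a1, a metal transporter of phagocytes, and Il1rn, the interleukin-1 receptor antagonist, were among the closest 3 for both Birc3 (r = 0.945 and 0.871) and Tnfrsf1b (r = 0.922 and 0.920). For Tnf the closest was Efhd2 (r = 0.966), which was 0.894 without NE 6 and NE 1. The closest were Prrc1 (r = 0.913) for Nfkb1, Tbx1 (r = 0.903) for Nfkb2, Mvp (r = 0.915) for Rela and the immunoglobulin segment Ighv3-1 (r = 0.917) for Relb.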

How the data were processed

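Total RNA from cochleae was made into stranded, poly(A)-selected libraries and sequenced on 1 Illumina platform. The authors deposited 1 table of FPKM per gene for all 17 libraries; the submitters' processing notes name Trimmomatic, HISAT2, Cufflinks and HTSeq and the build mm10, and versions are not given in the sources used here. FPKM are scaled for length and depth, so a few very abundant genes can lower the values of all others. Whole fragments were recovered from FPKM with exon lengths of GENCODE M21; 91.2% to 91.87% of values per library came out whole within 0.02, and these served the depths and the voom alternative only.

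Groups were taken from the labels. The main test was limma 3.58.1 (R 4.3.3, eBayes with trend) on log2(FPKM + 1), for genes with at least 1 FPKM in at least 3 of the libraries compared, using only the groups compared, with Benjamini-Hochberg adjustment over all genes tested. A call needed an adjusted p under 0.05 together with a log2 fold change of 1 or more in either direction. A log2 fold change on this scale understates the change of low genes. Single genes were also tested by exact two-sided permutation of the group means (scipy 1.17.1). The fit was tested on simulated data. The study's comparisons used DESeq2, which needs counts and was not used here. The 10 genes and the lists were chosen with earlier results of these data known. All 10 genes were described; of each list, the rule named genes that passed the test and, where none passed, the 3 with the smallest unadjusted p. The latter are printed for brimonidine against NE only; for comparisons with control, genes with an adjusted p under 0.05 are printed instead. For likeness, the 3 genes with the highest Pearson r per gene were taken. Alternatives covered the filter, pseudocount, scaling, weights, a joint model, a replicate block, voom and Il6 with each exposed library left out (both chosen after seeing the data) and each library left out. The marker lists of monocytes and macrophages and of hair cells were split by gene after their values were seen.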

Additional observations from a re-analysis of the deposited data

Results flagged for a closer look

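Tnf in brimonidine 3 was at 17.5 FPKM, far from the other brimonidine libraries, the next of which was at 14.0. Its gap to that library was 0.568 of the group's whole range on the log2(FPKM + 1) scale, just past Dixon's limit for 7 samples. It was the only library so marked among 20 groups of 7 examined, and about 1 in 20 such groups is marked by chance.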

How the results depend on the processing

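In brimonidine against NE, 0 genes of the set and 0 pathway genes were called under every alternative run, and each of the 9 differences stayed below 0 except Tnf without NE 6 (range over libraries left out -0.2041 to 0.0309). When libraries were weighted by their spread, the target gene Ptgs2 had an adjusted p of 0.0394 (difference -0.60, limma), short of the fold required. Of all genes, 0.0255% had an adjusted p under 0.05 in that setting. Comparisons with control rested on single libraries. With libraries weighted by their spread (array weights), control 3 weighed 4.62 and control 2 weighed 0.08 in NE against control; 2 genes of the set were then called in each comparison with control, against 5.08% and 5.47% of all genes. The differences in NE against control were then -1.40 for Tnf, -1.37 for Tnfaip3, -0.68 for Nfkbia, -0.28 for Nfkb2, -0.36 for Relb, -0.20 for Birc3 and -0.11 for Tnfrsf1b, and in brimonidine against control -1.82 for Tnfaip3, -1.45 for Tnf, -0.94 for Nfkbia, -0.32 for Birc3 and -0.16 for Tnfrsf1b. Quantile normalization put Nfkbia at -0.0453 in NE against control and Relb at 0.10 in brimonidine against control, where median-ratio scaling put Nfkb2 at 0.0518 and Relb at 0.0129. The median of all genes in NE against control moved from -0.04 to 0.06 under both scalings.

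With libraries left out in turn, the differences in NE against control ran from -0.61 to 1.22 for Tnf, -0.39 to 1.00 for Tnfaip3, -0.34 to 0.56 for Nfkbia, -0.0335 to 0.32 for Nfkb2 and -0.0426 to 0.37 for Relb. In brimonidine against control they ran from -0.73 to 1.0998 for Tnf, -0.86 to 0.52 for Tnfaip3, -0.62 to 0.28 for Nfkbia, -0.18 to 0.17 for Nfkb2, -0.23 to 0.19 for Relb and -0.10 to 0.55 for Birc3. Pathway genes called in NE against control numbered 2; they were 0 to 4 with a library left out (2.38% to 6.01% of all genes), 6 with no minimum fold (14.1%), 1 with no filter (2.72%) and 5 with array weights (5.08%). In brimonidine against control 1 was called; it was 0 to 5 with a library left out (3.01% to 6.92% of all genes), 5 with no minimum fold (15.8%) and 11 with array weights (5.47%). Over all genes, 918 calls in NE against control became 368 without control 2, and 913 in brimonidine against control became 468. The cause was not tested.

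Same-numbered libraries did not deviate together (correlations -0.22 to 0.08, 0 pairs above 0.1), so the numbers do not pair them. With a replicate block, 1 gene of the set had an unadjusted p under 0.05 in brimonidine against NE (4.93% of all genes), 0 pathway genes were called in either comparison with control, Tnfaip3 was at -0.0287 and Nfkbia at -0.0405 in NE against control, Relb was at 0.0056 in brimonidine against control, and calls over all genes were 0 and 236. Depth limited Il6 most, at 5 to 87 fragments per library.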
